A study of Mus musculus with 9 samples.

Results

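Regulators of cardiac energy metabolism, 10 genes in all, were examined in adult mouse hearts in which Cre was directed at floxed Ezh2 alleles: the PPAR genes Ppara, Ppard and Pparg, the estrogen-related receptor (ERR) genes Esrra, Esrrb and Esrrg, the PGC-1 coactivator genes Ppargc1a and Ppargc1b, the shared partner Rxra and the corepressor gene Nrip1. The genes were chosen by name, with earlier results of these data known. Each was read at the probe set, among those annotated to its symbol alone, whose mean across the arrays was highest. All 10 of the 10 were measured, among 19935 genes with 1 symbol. Only Ppargc1a had a further single-symbol probe set.

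RNA came from 9 adult hearts on a background described as mixed C57BL/6, of which the septum between the ventricles and the right ventricle were taken. The 5 wild-type mice are labelled Ezh2f/f, without Cre, and the 4 Ezh2-deficient mice Ezh2f/f;Mef2cAHF::Cre, so that by these labels both groups carry floxed Ezh2 alleles and only the deficient group carries Cre. Wild-type titles read f/wt instead, and which label holds is not settled. The Mef2cAHF enhancer drives Cre in embryonic progenitor cells of the anterior heart field, so the dissected tissue also holds cells outside that lineage. No age beyond adult is given, and by Y-linked genes 1 wild-type and 2 deficient hearts were female. Ezh2, the catalytic subunit of Polycomb repressive complex 2, did not differ past the threshold: 8.73 ± 0.12 (SD, n = 5) in wild-type and 8.88 ± 0.11 (SD, n = 4) in deficient hearts (limma adjusted p = 0.485). Its values were 8.887, 8.602, 8.678, 8.805 and 8.662 in wild-type arrays 1 to 5 and 8.939, 8.739, 8.977 and 8.858 in Ezh2-deficient arrays 1 to 4. The Ezh2 probe set therefore does not check the labels, and an effect of losing Ezh2 cannot be told apart from an effect of Cre.

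PPARs are nuclear receptors that bind fatty acids and their derivatives and act on DNA as pairs with a retinoid X receptor. ERRs are orphan nuclear receptors that bind a related element without a known natural hormone. PGC-1 coactivators dock on both kinds of receptor and raise transcription of genes for fatty acid oxidation and mitochondrial respiration, whereas the corepressor encoded by Nrip1 opposes them. In the adult heart, which burns mainly fatty acids, PPAR alpha, ERR alpha, ERR gamma and PGC-1 alpha are the best known of these factors.

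The promoter windows of the group are shown first, because Polycomb complexes act largely at CpG-rich promoters and because the receptors recognise short DNA elements. RefSeq windows on GRCm38.p6, from 250 bases before to 50 bases after an annotated start, were matched for 9 of the 10 genes, 17 windows in all; Ppargc1b had no entry in the table used. They held from 1 to 55 CpG dinucleotides, with a median of 16, against a median of 13 over 21263 windows of protein-coding genes. Rxra had windows at both ends of that range, and Nrip1 had windows of 6 and 40. The bases before the start are printed for Ppara, with a CpG-rich window, and for Ppargc1a, with a CpG-poor window. Capitals mark each CpG, of which there are 27 and 5 in the bases shown.
Ppara, chr15:85735526-85735775, plus strand: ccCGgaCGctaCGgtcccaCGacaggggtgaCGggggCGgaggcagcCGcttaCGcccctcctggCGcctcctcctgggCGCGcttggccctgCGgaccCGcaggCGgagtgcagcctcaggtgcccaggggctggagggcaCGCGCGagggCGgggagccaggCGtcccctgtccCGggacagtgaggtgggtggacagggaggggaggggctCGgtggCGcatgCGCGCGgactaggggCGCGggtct
Ppargc1a, chr5:51567726-51567975, minus strand: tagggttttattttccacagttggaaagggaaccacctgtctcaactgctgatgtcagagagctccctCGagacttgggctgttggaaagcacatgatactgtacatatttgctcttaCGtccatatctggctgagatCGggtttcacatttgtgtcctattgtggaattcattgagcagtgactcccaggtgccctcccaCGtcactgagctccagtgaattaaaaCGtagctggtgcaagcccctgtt

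Motifs were searched on both strands of these windows. The ERR element TCAAGGTCA was found in 0 of the 17 windows and in 0.423% of all 32851 windows. The PPAR element, a direct repeat of AGGTCA spaced by 1 base, was found in 0 and in 0.0396%. The half-site AGGTCA, which both longer motifs contain, was found in 3 of the 17 windows, those of Pparg and Rxra, and in 16.3% of all windows. The cyclic AMP element TGACGTCA, through which Ppargc1a is known to be induced, was found in 0 of the 17 windows and in 1.79% of all windows. It was found in 6 of 43 windows of listed ERR targets, all of them windows of Cycs, Mdh2, Ogdh and Uqcrfs1. In listed PPAR targets it was found in 0 of 34 windows, and in protein-coding genes in 2.23%. The motifs were chosen after other results were seen. These are matches of letters in short windows and not measured binding. Bases outside the windows were not searched, so an element of Ppargc1a at another start or farther off would be missed.

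Of the 10 regulators 0 passed limma's test after Benjamini-Hochberg adjustment over all 28815 probe sets, of which 0.0347% passed (0.0104% lower and 0.0243% higher). No filter on low values was applied, and all 10 genes entered the test. The mean was lower in Ezh2-deficient hearts for 9 of the 10, all but Pparg, against 51.6% of all genes with 1 symbol and 52.9% of probe sets. The median difference over the 10 was -0.10 on the log2 scale, against -0.003 over all genes. An unadjusted p under 0.05 was reached by 2 of them, Ppargc1b and Esrrb, both lower. Over all probe sets 5.45% reached it lower and 5.23% higher, 10.7% together. The groups overlapped for all 10 regulators, whereas they did not overlap at 3.71% of probe sets, 1.91% with deficient hearts lower and 1.79% with them higher. Every difference is the mean of deficient hearts less that of wild-type hearts, in deposited log2 units.

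**Figure D1:**
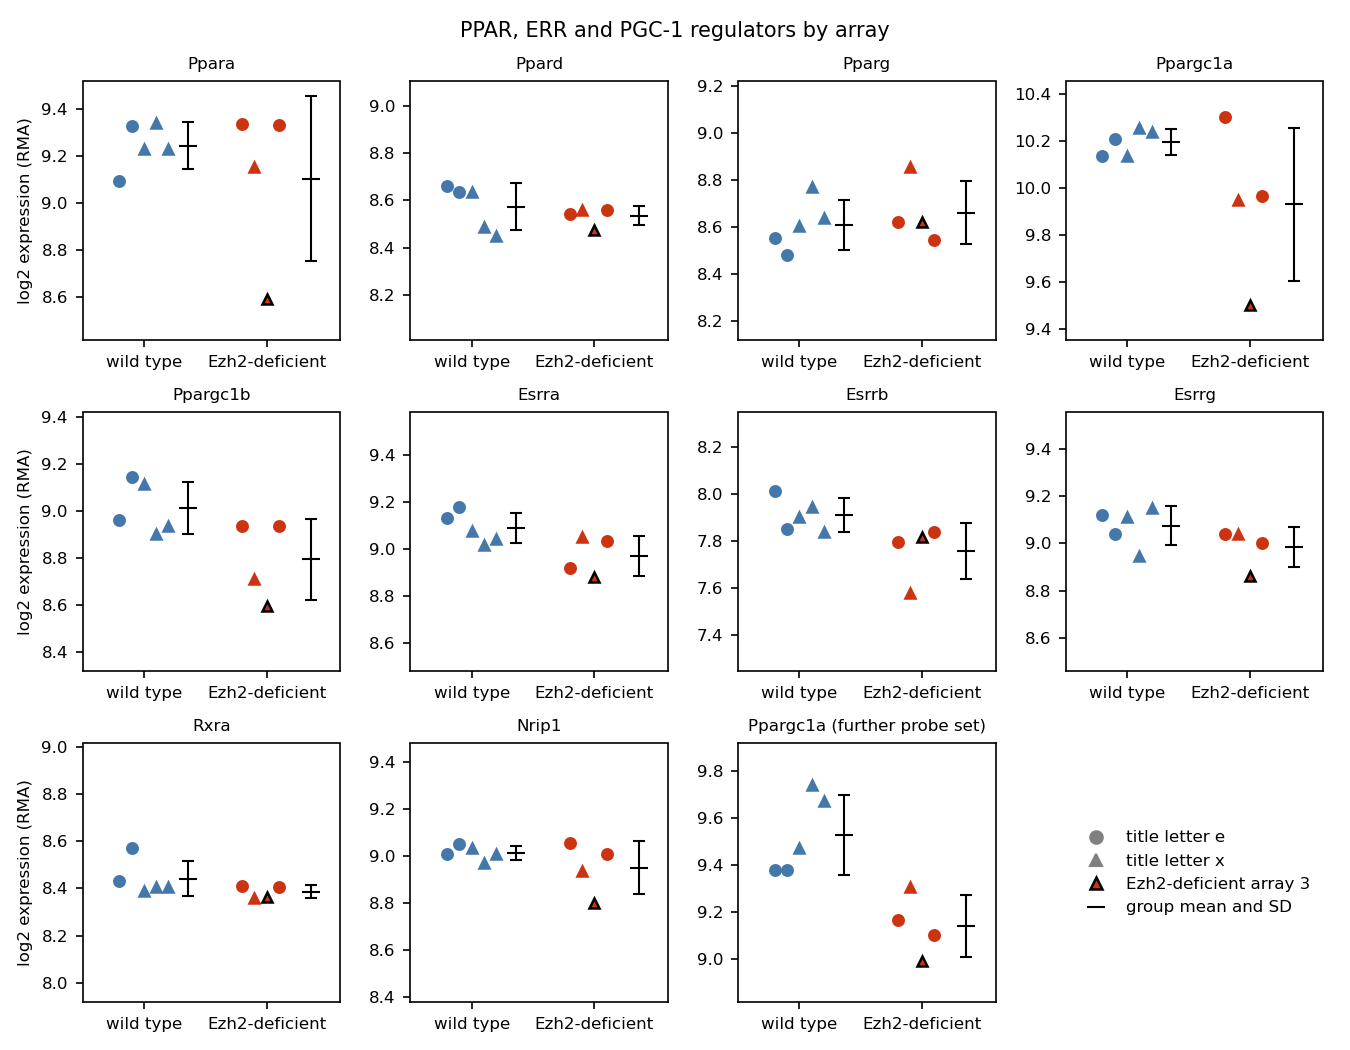
Deposited log2 expression of the 10 regulators and of the further Ppargc1a probe set on each array, with wild-type hearts in blue and Ezh2-deficient hearts in red; circles and triangles mark the title letters e and x, the black outline marks Ezh2-deficient array 3, and bars give the group mean and SD. Each panel spans the same height on its own level; the groups overlap in every panel but that of the further Ppargc1a probe set, and Ezh2-deficient array 3 is the lowest of 9 for 6 genes.

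Arrays of 1 group differed among themselves. Array medians lay between 7.19 and 7.25. Sample titles carry a letter e or x of unstated meaning, e on 2 arrays of each group and x on 3 wild-type and 2 deficient arrays, and for the 10 regulators and the lists values by letter are given beside the pooled ones. Ezh2-deficient array 3, a sample of letter x, was the lowest of the 9 arrays for 6 of the 10 genes (Ppara, Ppargc1a, Ppargc1b, Esrra, Esrrg and Nrip1) and lay below every wild-type array for 8. The same counts were not made over all genes, so they do not set the regulators apart from other genes. Its median deviation from the wild-type means over the 10 genes was -0.21, against -0.03 to -0.08 in the other 3 deficient arrays. The same array had the highest mean over 7 measured erythrocyte markers, 8.52 against 7.47 to 7.88 in the other 8 arrays. It also had the lowest mean over 10 cardiomyocyte markers, 13.51 against 13.66 to 13.78. The part of either in the regulators' values was not tested, and values without it are given where they move by over 1.5 times. Without it 8 of the 10 regulators had a lower mean, with a median of -0.05. In a piece of tissue, fewer cells of a type and less RNA per cell cannot be told apart.

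Over all 9 arrays the coactivator genes had the largest differences of the group. Without Ezh2-deficient array 3 Esrrb had the largest (-0.17), and in letter e Esrra (-0.18). Ppargc1a encodes PGC-1 alpha, which is induced by cold, exercise and fasting and drives mitochondrial biogenesis. It read 10.134, 10.209, 10.137, 10.253 and 10.239 in wild-type arrays 1 to 5 and 10.300, 9.948, 9.504 and 9.966 in Ezh2-deficient arrays 1 to 4. In the deficient group 3 hearts lay below every wild-type heart, and Ezh2-deficient array 1 lay above them all. The mean was 10.19 ± 0.06 (SD, n = 5) against 9.93 ± 0.33 (SD, n = 4), a level of 83.2% of wild type with a 95% interval of 68.3% to 101%. The difference of -0.26 (SE 0.13) did not pass (limma adjusted p = 0.498; exact two-sided permutation p = 0.0873). Samples of letter e alone gave -0.04, those of letter x -0.48, and the fit without Ezh2-deficient array 3 gave -0.12. Leaving out Ezh2-deficient array 1 instead gave -0.39, and averaging the probe sets of the gene gave -0.33.

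The further probe set of Ppargc1a gave a different picture of the same gene. It read 9.38, 9.38, 9.47, 9.74 and 9.67 in wild-type hearts and 9.16, 9.31, 8.99 and 9.10 in deficient hearts. Here all 4 deficient hearts lay below all 5 wild-type hearts. Array 1 of the deficient group, the highest of all 9 at the other probe set, lay below every wild-type heart at this one. The difference was -0.39 (SE 0.09), a level of 76.5% of wild type (95% interval 66.2% to 88.4%), with an exact permutation p = 0.00794, the smallest that 5 against 4 arrays allow. It did not pass over all probe sets (limma adjusted p = 0.2). By letter it was -0.24 (e) and -0.48 (x), and it was -0.34 once Ezh2-deficient array 3 was left out. The table does not give where in the transcript either probe set lies. This probe set was described after its values were seen.

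Ppargc1b encodes PGC-1 beta, a related coactivator of basal mitochondrial function. Its values were 8.96, 9.14, 9.12, 8.90 and 8.93 in wild-type hearts and 8.94, 8.71, 8.59 and 8.94 in deficient hearts. Ezh2-deficient arrays 2 and 3 lay below every wild-type heart, and arrays 1 and 4 lay inside the wild-type range. The level was 86.0% of wild type (95% interval 75.3% to 98.2%). The difference of -0.22 (SE 0.09) did not pass (limma adjusted p = 0.403; exact permutation p = 0.0794). Its sign was kept in letter e (-0.12), in letter x (-0.33) and when Ezh2-deficient array 3 was left out (-0.15).

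**Figure D2:**
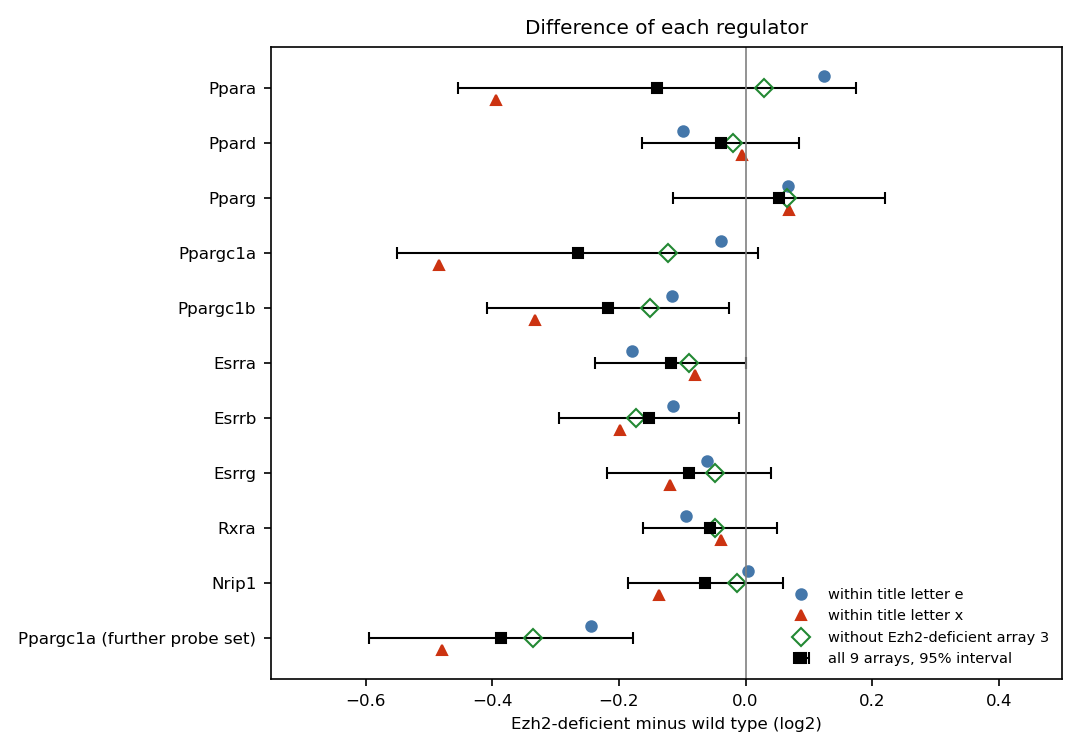
Difference between Ezh2-deficient and wild-type hearts on the log2 scale for each regulator; black squares with bars give the fit over 9 arrays with its 95% interval, blue circles and red triangles the difference within title letters e and x, and green diamonds the difference without Ezh2-deficient array 3. The interval of Ppara, from -0.46 to 0.17, and that of Ppargc1a, from -0.55 to 0.02, are the widest, and the sign of Ppara changes between the letters.

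For each PPAR gene the 95% interval of the difference included 0. Ppara, the main PPAR of the heart and an activator of fatty acid oxidation genes, read 9.09, 9.33, 9.23, 9.34 and 9.23 in wild-type hearts and 9.34, 9.15, 8.59 and 9.33 in deficient hearts. In the deficient group 3 hearts lay inside the wild-type range, and array 3 lay below it. The difference was -0.14 (SE 0.14, limma adjusted p = 0.755; exact permutation p = 0.579), and without array 3 it was 0.03. Within letter e it was 0.12 and within letter x -0.39. Array 3 is 1 of the 2 deficient arrays of letter x, so the letters and that array are not separate checks. The test of the difference between the letters gave -0.52 (SE 0.22), with a 95% interval of -1.03 to -0.01, and did not pass over all probe sets (limma adjusted p = 0.732). In that test 0.0% of probe sets passed, and 6.12% had an unadjusted p under 0.05.

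Ppard encodes the widely expressed PPAR delta, which also acts on fatty acid oxidation genes in heart muscle. It read 8.66, 8.64, 8.64, 8.49 and 8.45 in wild-type hearts and 8.54, 8.56, 8.48 and 8.56 in deficient hearts, all inside the wild-type range. Its level was 97.3% of wild type, with a 95% interval of 89.3% to 106% (limma adjusted p = 0.836). The difference was -0.04, with -0.10 in letter e, -0.01 in letter x and -0.02 when Ezh2-deficient array 3 was left out.

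Pparg, the PPAR of fat cells, was the one gene of the group with a higher mean. It read 8.551, 8.482, 8.604, 8.768 and 8.636 in wild-type hearts and 8.622, 8.854, 8.622 and 8.546 in deficient hearts. Ezh2-deficient array 2 was the highest and wild-type array 4 came next, and the rest read 8.482 to 8.636. The difference of 0.05 (SE 0.08, limma adjusted p = 0.837) became -0.01 without Ezh2-deficient array 2, and it was 0.07 in each letter. These 2 arrays also had the highest means over 10 adipocyte markers, 7.97 and 7.49, against 7.12 to 7.42 in the other 7. Adipoq, named after its values were seen, encodes the fat cell hormone adiponectin. It read 6.80 in Ezh2-deficient array 2 and 5.59 in wild-type array 4, and 4.65 to 5.46 in the others. Other genes of the list did not all follow. Plin1 read 7.396 in Ezh2-deficient array 2, the highest, but 6.806 in wild-type array 4, the lowest. Lipe read 8.822 in Ezh2-deficient array 2, below every wild-type heart, and 8.890 in wild-type array 4, the lowest wild-type value. Over the whole adipocyte list 8 of 10 genes had a higher mean, 0 passed by limma, and 1, Lipe, lower, reached an unadjusted p under 0.05. The part of fat cells in the Pparg values was not tested.

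The ERR genes had lower means throughout, by small amounts. Esrra encodes ERR alpha, a close partner of PGC-1 alpha at genes of respiration. It read 9.13, 9.18, 9.08, 9.02 and 9.04 in wild-type hearts and 8.92, 9.05, 8.88 and 9.03 in deficient hearts. Arrays 1 and 3 of the deficient group lay below every wild-type heart, and arrays 2 and 4 lay in the lower part of the wild-type range. The difference was -0.12 (SE 0.05, limma adjusted p = 0.47; exact permutation p = 0.0635), a level of 92.1% of wild type (95% interval 84.8% to 100%). Letter e gave -0.18, letter x gave -0.08, and leaving out Ezh2-deficient array 3 gave -0.09.

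Esrrb encodes ERR beta, known best from embryonic stem cells and placenta. It read 8.01, 7.85, 7.90, 7.95 and 7.84 in wild-type hearts and 7.80, 7.58, 7.82 and 7.84 in deficient hearts. In the deficient group 3 hearts lay below every wild-type heart, and array 4 lay at the value of the lowest one. The difference of -0.15 (SE 0.06) had the smallest exact permutation p of the 10 genes, 0.0238, and did not pass over all probe sets (limma adjusted p = 0.43). Its sign was kept in letter e (-0.12), in letter x (-0.20) and when Ezh2-deficient array 3 was left out (-0.17). Without array 2, which read lowest, it was -0.09.

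Esrrg encodes ERR gamma, which promotes the switch to oxidative metabolism in the heart after birth. It read 9.122, 9.041, 9.114, 8.947 and 9.152 in wild-type hearts and 9.041, 9.041, 8.861 and 9.001 in deficient hearts. Array 3 lay below the wild-type range and the other 3 lay inside it. The difference was -0.09 (SE 0.06, limma adjusted p = 0.618); by letter it was -0.06 (e) and -0.12 (x). Leaving out Ezh2-deficient array 3 gave -0.05.

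The shared partner and the corepressor differed by little. Rxra, which encodes the retinoid X receptor alpha that pairs with PPARs, read 8.43, 8.57, 8.39, 8.41 and 8.41 in wild-type hearts and 8.41, 8.36, 8.36 and 8.41 in deficient hearts. Arrays 2 and 3 of the deficient group lay just below the wild-type range. The difference was -0.06 (SE 0.05, limma adjusted p = 0.704) and -0.02 without wild-type array 2, which read highest. By letter it was -0.09 (e) and -0.04 (x). Nrip1, whose product RIP140 represses oxidative genes, read 9.01, 9.05, 9.04, 8.97 and 9.01 in wild-type hearts and 9.06, 8.94, 8.80 and 9.01 in deficient hearts. Arrays 2 and 3 of the deficient group lay below the wild-type range and array 1 just above it. Its difference was -0.06 (SE 0.05, limma adjusted p = 0.709), and -0.01 without Ezh2-deficient array 3. By letter it was 0.0035 (e) and -0.14 (x).

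Other partners and coregulators of the receptors were read from a list of known factors, of which 21 of 24 genes were measured. With limma, 0 of the 21 passed. Of these genes 13 had a lower and 8 a higher mean, and the median difference was -0.03, with -0.03 in letter e, -0.02 in letter x and -0.01 without Ezh2-deficient array 3. An unadjusted p under 0.05 was reached by 2, both lower, or 9.52% against 5.45% of all probe sets. Rxrg, the retinoid X receptor gene of heart and skeletal muscle, read 9.13, 9.26, 9.26, 9.13 and 9.32 in wild-type hearts and 8.98, 8.94, 8.87 and 9.11 in deficient hearts. The groups did not overlap, and the difference was -0.24 (SE 0.06, limma adjusted p = 0.21); by letter it was -0.15 (e) and -0.33 (x). Its level was 84.4% of wild type. The coactivator gene Ncoa6 differed by -0.18 (SE 0.08) and Klf15, a regulator of lipid and amino acid use, by -0.17 (SE 0.10). Nr2f2, which encodes the orphan receptor COUP-TFII, differed by 0.17 (SE 0.09). Without Ezh2-deficient array 3 Ncoa6 differed by -0.11 and Nr2f2 by 0.10. Klf15 differed by -0.11 without wild-type array 5 and by -0.02 without wild-type arrays 4 and 5.

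Upstream regulators of PGC-1 were measured for 24 of 24 genes. Again 0 passed by limma. A lower mean was found for 16, against 51.6% of all genes, and a higher one for 8. An unadjusted p under 0.05 was reached by 7 lower and 2 higher, or 29.2% and 8.33%, against 5.45% and 5.23% of probe sets. The median difference was -0.06, with -0.004 in letter e, -0.11 in letter x and -0.03 without Ezh2-deficient array 3. Stk11 encodes LKB1, the kinase that activates AMPK; it differed by -0.19 (SE 0.05, limma adjusted p = 0.252), and its groups did not overlap. The AMPK beta subunit genes had differences of opposite sign. Prkab1 differed by -0.17 (SE 0.05, limma adjusted p = 0.277) with no overlap, while Prkab2, the muscle form, differed by 0.28 (SE 0.09, limma adjusted p = 0.338). The kinase gene Mapk14 differed by -0.14 (SE 0.05).

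Nuclear genes for mitochondrial biogenesis act downstream of PGC-1. All 15 listed were measured, and 12 had a lower mean, against 51.6% of all genes. By limma 0 passed; 3 of the 15 reached an unadjusted p under 0.05, all lower, against 5.45% of probe sets. The median difference was -0.11, with -0.03 in letter e and -0.21 in letter x. Tfam, the main packaging and transcription factor of mitochondrial DNA, read 8.769, 8.631, 8.660, 8.881 and 8.893 in wild-type hearts and 8.574, 8.525, 8.495 and 8.620 in deficient hearts. All 4 deficient hearts lay below the lowest wild-type heart, by a narrow margin, and the difference was -0.21 (SE 0.06, limma adjusted p = 0.291). The transcription factor gene Tfb1m differed by -0.24 (SE 0.08), the helicase gene Twnk by -0.17 (SE 0.07) and the fusion gene Mfn1 by -0.15 (SE 0.07). Without Ezh2-deficient array 3 Twnk differed by -0.11 and Mfn1 by -0.09, and the median of this list was -0.05.

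**Figure D3:**
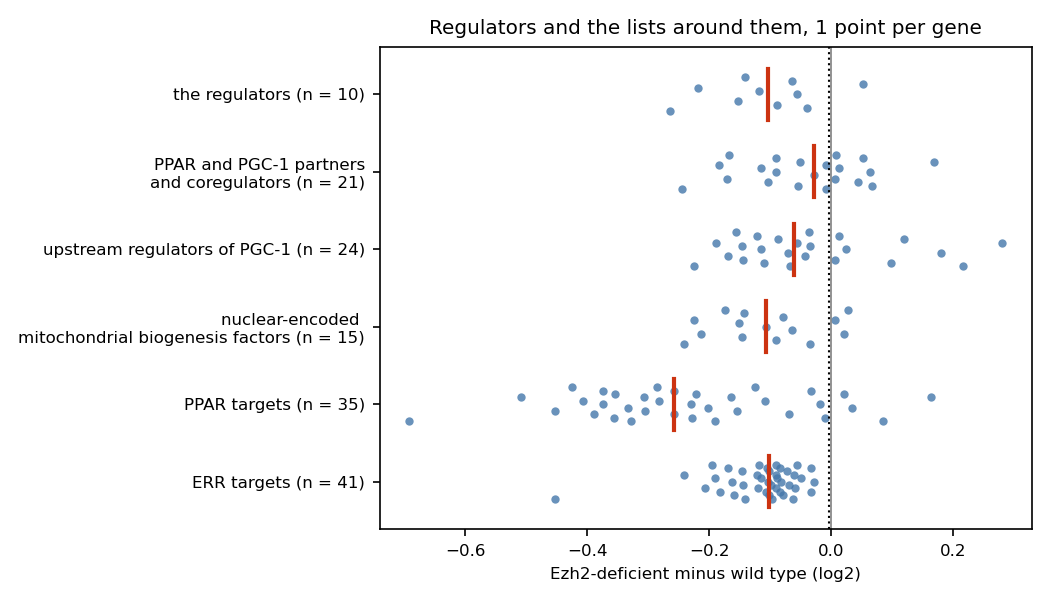
Difference between Ezh2-deficient and wild-type hearts on the log2 scale, 1 point per gene with vertical scatter for display only, for the regulators and 5 lists around them; red bars give the list medians and the dotted line the median of all genes. All 41 ERR targets lie below 0, and the PPAR targets have a median of -0.26. Both target lists were written with earlier results of these data known.

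Known targets of the PPARs were mostly lower in mean. The list was written from textbook knowledge with earlier results of these data known, and it overlaps fatty acid oxidation genes already known to be lower here, so its direction is not independent evidence. Of 35 measured genes 31 had a lower mean, with a median difference of -0.26, or -0.20 in letter e and -0.30 in letter x. An unadjusted p under 0.05 was reached by 25, all lower, against 5.45% of probe sets. The groups did not overlap for 17, all lower, against 1.91%. By limma over all probe sets 1 of the 35 passed, Acot1. Acot1, which encodes a cytosolic acyl-CoA thioesterase, read 8.07, 8.33, 7.92, 8.09 and 8.23 in wild-type hearts and 7.39, 7.28, 7.57 and 7.51 in deficient hearts. It fell to 61.9% of the wild-type level (limma adjusted p = 0.0448). The call was lost without any 1 of the 9 arrays (limma adjusted p = 0.0542 to 0.152). It was also lost with the mean of Y-linked genes, which differ by sex, as a covariate. The difference was -0.75 in letter e and -0.66 in letter x.

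Other genes of the list did not pass. Fitm1, which encodes a lipid droplet protein of muscle, differed by -0.42 (SE 0.06, limma adjusted p = 0.0501), and it passed with the title letter as a block (limma adjusted p = 0.0421). The gene of malonyl-CoA decarboxylase, Mlycd, differed by -0.33 (SE 0.06, limma adjusted p = 0.120), and Ech1, an auxiliary enzyme of fatty acid oxidation, by -0.41 (SE 0.07, limma adjusted p = 0.121). Named after their values were seen, the classical target genes Ucp3 and Pdk4 differed by -0.51 (SE 0.14) and -0.45 (SE 0.16). Angptl4 and Fgf21, named in the same way, also respond to PPAR ligands and differed by -0.03 (SE 0.25) and 0.02 (SE 0.05). Fgf21 read 6.64 in wild-type and 6.66 in deficient hearts. Both means lie below every array median, so a difference there could be missed. For Angptl4 the difference was -0.47 in letter e and 0.25 in letter x.

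ERR targets are mostly genes of the citrate cycle and respiratory chain. This list too was written with earlier results known, so its direction is not independent evidence. All 41 measured genes had a lower mean, against 51.6% of all genes. The median was -0.10, or -0.06 in letter e and -0.13 in letter x. Of 10 cardiomyocyte markers 9 were lower in mean too, with a median of -0.07. By limma 0 of the 41 ERR targets passed. An unadjusted p under 0.05 was reached by 18, all lower, or 43.9% against 5.45% of probe sets. The groups did not overlap for 12, all lower, or 29.3% against 1.91%. The list shares 2 genes with the PPAR targets, Acadm and Pdk4. Sdhd, a membrane anchor of succinate dehydrogenase, read 11.88, 11.78, 11.91, 11.87 and 11.86 in wild-type hearts and 11.53, 11.75, 11.62 and 11.57 in deficient hearts. The difference was -0.24 (SE 0.05, limma adjusted p = 0.147); by letter it was -0.27 (e) and -0.20 (x). Fh1 (fumarase), Ndufs3 (complex I) and Cox7a1 (complex IV) differed by -0.18, -0.17 and -0.14, with SEs of 0.05, 0.05 and 0.04. Among 35 ERR target genes with a promoter window, only that of Sdhd held TCAAGGTCA. It lies just after the start, on the strand opposite to the gene. The bases are printed on the gene's own strand, the minus strand of the chromosome, so the capitals show the reverse complement of the motif.
Sdhd, chr9:50603800-50603823, minus strand: ggttgtagagTGACCTTGAgccct

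**Figure D4:**
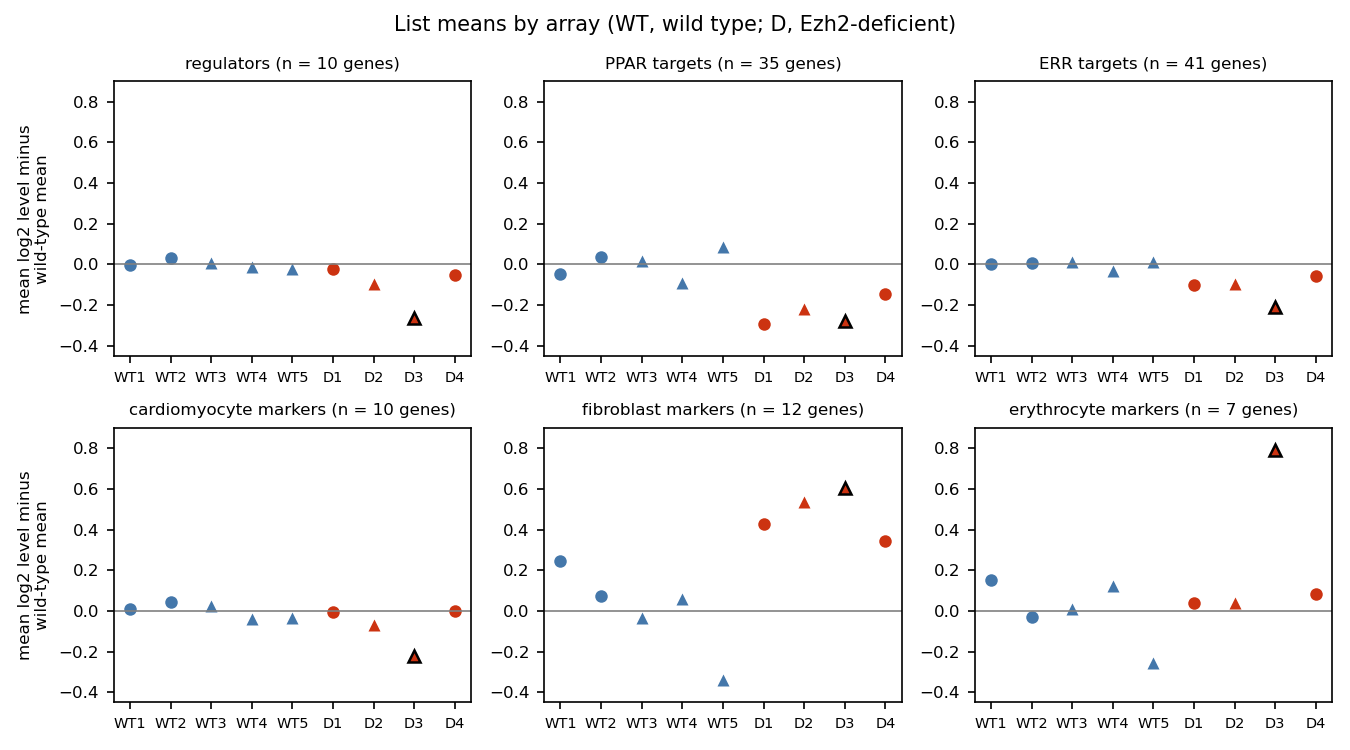
Mean log2 level of each list on each array minus its wild-type mean, for the regulators, their targets and 3 sets of cell type markers; symbols and colours are as in the plot of single genes, WT marks wild-type and D Ezh2-deficient arrays. The PPAR target means of the groups do not overlap, fibroblast markers are higher in all 4 deficient hearts, and Ezh2-deficient array 3 stands apart for erythrocyte and cardiomyocyte markers.

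Target means were also read array by array. The mean over the PPAR targets was 10.93 to 11.11 in wild-type and 10.73 to 10.88 in deficient hearts. It was lowest in Ezh2-deficient array 1, at 10.73. There Ppara read 9.34, next to the highest wild-type value, and Ppargc1a read 10.30, the highest of all arrays. The further Ppargc1a probe set, however, read 9.16 in that array, below every wild-type heart. In Ezh2-deficient array 3, where Ppara and Ppargc1a were lowest, the PPAR target mean was 10.74. The ERR target mean was 12.63 to 12.68 in wild-type and 12.45 to 12.61 in deficient hearts, and it was lowest in array 3. Without that array the medians were -0.20 for PPAR and -0.08 for ERR targets, with 30 of 35 and 38 of 41 genes lower.

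Markers of other cells differed alongside these lists. All 12 fibroblast markers had a higher mean in deficient hearts. Of all genes with 1 symbol 48.4% had a higher and 51.6% a lower mean. The fibroblast markers had a median difference of 0.45, or 0.20 in letter e, 0.68 in letter x and 0.30 without Ezh2-deficient array 3. Their mean level was 10.27 to 10.85 in wild-type and 10.96 to 11.21 in deficient hearts. All 11 endothelial markers were also higher in mean, with a median of 0.27, and levels of 9.83 to 10.36 and 10.36 to 10.46. Their median was 0.15 without wild-type array 5, and 0.06 without wild-type arrays 4 and 5, with 8 of 11 then higher. By letter it was 0.12 (e) and 0.31 (x). Of 10 cardiomyocyte markers 9 had a lower mean, with a median of -0.07 (-0.01 in letter e, -0.11 in letter x, -0.03 without Ezh2-deficient array 3) and levels of 13.69 to 13.78 and 13.51 to 13.73, so the labelled tissue had its defining markers at high readings in every array. By limma 0 passed in each of these lists; an unadjusted p under 0.05 was reached by 8 fibroblast and 3 endothelial markers, all higher, and by 1 cardiomyocyte marker, lower. The part of a shift in cell types in the results for regulators and targets was not tested. The remaining lists had medians of 0.18 (macrophages and leukocytes), 0.14 (epicardium), 0.14 (erythrocytes), 0.09 (smooth muscle and pericytes), 0.08 (adipocytes), 0.07 (brown adipocytes) and 0.03 (Schwann and neuronal cells). Within letter e the medians of macrophages (-0.03), epicardium (-0.06), erythrocytes (-0.01), adipocytes (-0.10) and brown adipocytes (-0.04) were below 0, and within letter x those of smooth muscle (-0.04) and Schwann cells (-0.01). Without Ezh2-deficient array 3 the median was 0.02 for epicardium, 0.03 for erythrocytes, 0.12 for macrophages and 0.20 for smooth muscle. Without Ezh2-deficient array 2 it was -0.05 for adipocytes, and without wild-type array 5 it was 0.09 for macrophages.

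The genes most like 3 of the regulators over the 9 arrays were taken by Pearson's r among 19934 other genes, as a description with no p, since each was picked as the highest. For Ppara they were Scaf4 (r = 0.981), Coro6 (0.980) and Csrp3 (0.966). For Ppargc1a they were Cep85 (0.971), Ttc19 (0.958) and Hcfc2 (0.950), and for Esrra Zfp768 (0.974), Mapk14 (0.958) and Txn2 (0.955). Spearman's rho for the 9 pairs ran from 0.698 for Ttc19 to 0.949 for Hcfc2. Ezh2-deficient array 3 was the lowest array for each of the 9 genes. Without the 2 arrays farthest from the median of the regulator, r fell to 0.79, 0.78 and 0.75 for the genes like Ppara, and to 0.88, 0.76 and 0.67 for those like Ppargc1a. For those like Esrra it was 0.94, 0.89 and 0.94.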

How the data were processed

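Affymetrix arrays measured total RNA from 9 hearts, 1 array per sample. The deposited values are log2 expression. The submitters' processing notes name RMA and Affymetrix Power Tools; the version of each is not given in the sources here. RMA brings arrays to a common distribution and is known to compress fold changes, and the table has no detection call. The log2 scale was read from the range, 2.18 to 15.0. The table held 0 other columns of sample values.

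Names came from the annotation of the platform: 21780 of 28815 had 1 symbol, 1605 several and 5430 none in it. A gene was read at the single-symbol probe set with the highest mean. Genotype was the sole term of a limma model (version 3.58.1 in R 4.3.3; lmFit, then eBayes). Its two-sided p-values were adjusted over the whole table by the Benjamini-Hochberg method, with a threshold of 0.05. Single values were also tested by exact permutation over all assignments of the arrays to the groups. Groups came from the description labels, and replicate numbers follow sample order and carry no pairing. Each array was taken as a separate animal, since 5 and 4 mice are named in the labels. The labels name no batch. By Y-linked genes, 1 wild-type and 2 deficient hearts came from females. With the mean of these genes as a covariate every regulator kept its sign. The differences of Ppard, Esrrg and Esrra, among others, shrank to -0.019, -0.057 and -0.085. Those of Esrrb and Ppargc1a grew to -0.176 and -0.276. The part of sex was not tested.

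Members and lists were chosen with earlier results of these data known. By rule the genes named are the 10 regulators, up to 4 per pathway list and 2 per marker list with the smallest p, and 3 most alike for each of 3 regulators. Marker genes were named only where a result turned on them. Ezh2, Adipoq, Ucp3, Pdk4, Angptl4 and Fgf21 were named outside the rule, after values were seen or as a check. Other genes are named for a motif or for being in 2 lists. Listed genes beyond the 21 of 24 partners, 35 of 40 PPAR targets and 41 of 44 ERR targets measured were not analysed here. Alternatives were other scalings, filters on dim probe sets, blocks, a Y-linked covariate, array weights, left-out arrays and averaged probe sets. The number of arrays limits the precision: the median SE was 0.07.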

Additional observations from a re-analysis of the deposited data

Results flagged for a closer look

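In groups of 4 or 5 arrays, 11 values stood far from the rest of their group, among 132 groups tested over the regulators, the named genes and the list means; about 1 in 20 groups is marked by chance, or 6.6 here. Of the regulators, Esrrb read 7.58 in Ezh2-deficient array 2, against 7.80 for the next lowest, and Rxra read 8.57 in wild-type array 2, against 8.43 for the next highest. Ezh2-deficient array 3 was high for the erythrocyte genes Alas2 (11.57, next 9.27) and Slc4a1 (8.74, next 7.63), for the mean of the erythrocyte list (8.52, next 7.81) and for the glial gene S100b (6.33, next 6.09). Plin1, a lipid droplet gene of fat cells, read 7.396 in Ezh2-deficient array 2 and 6.913 in each of the other 3. With 3 equal values any other value is marked, whatever its size. S100b also had repeated values, at 6.052. These repeated values of Plin1 and S100b lie below every array median. In wild-type array 4 S100b (5.64) and the mean of the ERR targets (12.63) were low, and in wild-type array 5 Eng (10.16) and the mean of the smooth muscle and pericyte list (9.51).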

How the results depend on the processing

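The count of regulators called was 0 in each of 22 alternative settings, and the lowest limma adjusted p of a regulator in any of them was 0.238, that of Ppargc1b. The further Ppargc1a probe set, added after seeing the data, reached 0.12 at the lowest. Of 221 differences recomputed 216 kept their sign. Ppara reversed to 0.0132 with array weights, 0.124 within letter e and 0.0299 without Ezh2-deficient array 3 (range over left-out arrays -0.218 to 0.0299). Pparg reversed to -0.0115 without Ezh2-deficient array 2 (range -0.0115 to 0.0928), and Nrip1 to 0.0035 within letter e; the cause was not tested. The 10 calls over all probe sets became 17 with arrays centred on their median, with probe sets under the median left out, with the letter as a block or with probe sets of a gene averaged, 20 without probe sets of a mean under 6, 27 with letter and prime as a block and 37 with array weights. They became 3 with the Y-linked covariate, 0 by limma within letter e or x, which hold fewer arrays and where p before adjustment was under 0.05 for 2183 and 3132, 5 without wild-type arrays 4 and 5, and 3 to 15 when 1 array was left out; with a further quantile normalization or with trend and robust eBayes there were 10. Of 195 list medians 9 changed sign, none in a list of regulators or targets. Signal over background could not be judged, since the table has no background measure; Esrrb reads nearest to the array medians.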
